A study of Mus musculus with 6 samples.

Results

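Epithelial cells are held to their neighbours by adherens junctions, sealed by tight junctions and fastened by desmosomes, and this set of 32 genes covers those structures with the regulators that keep epithelial cells polarised. All 32 were measured in 3 related lines of mouse hepatocellular carcinoma cells, among 18193 genes on the arrays. The genes fall into 2 adherens junction and epithelial adhesion genes (Cdh1 and Epcam), 13 tight junction genes, 7 desmosome genes, 4 splicing and transcription regulators, 2 polarity and apical traffic genes, and 4 membrane serine proteases or their inhibitors. A gene was taken from probe sets whose platform annotation names it alone, and stood by the probe set with the highest mean over all arrays. That rule left aside 31 of the 63 probe sets that name a member, and some of those 31 differed from the chosen ones, so they are given as well.

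BL185 is the parent line, derived from hepatocellular carcinoma per the labels. M1 and I1 are subpopulations taken from it for their ability to migrate, and their titles call each a subclone line. All were grown in DMEM with serum, with no other treatment, and no genotype is given in the labels. Each line was profiled on 2 Affymetrix arrays of total RNA, and the study asked how each migratory line differs from its parent. A subclone that had not been selected was not measured, so selection and subcloning cannot be told apart. Whether a line's arrays stand for separate cultures is not in the labels, so the p-values here reflect array-to-array spread only, and that spread may be technical.

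In a simple epithelium, E-cadherin (Cdh1) joins neighbouring cells and connects through catenins to actin. Claudins, occludin and tricellulin form the tight junction seal, and desmosomal cadherins such as desmoglein 2 and desmocollin 2 connect through plakoglobin, plakophilins and desmoplakin to keratin filaments. The transcription factors Grhl2 and Elf3 and the splicing factors Esrp1 and Esrp2 maintain the epithelial programme, whereas Snail, Zeb and Twist proteins repress it through E-box sequences. In the liver tight junctions seal the bile canaliculus, and loss of E-cadherin and claudins is a textbook feature of cells that leave an epithelium.

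The E-box letters CAGGTG, or CACCTG on the other strand, occurred in the promoter window of 15 of the 21 members that have a window in the RefSeq table (71.4%), against 22.6% of 27025 genes. A window runs from 250 bases before to 50 bases after an annotated start of transcription in assembly GRCm38.p6, and a match anywhere in it on either strand counted. Member windows were richer in G and C, with a median of 60.7% against 52.7% over all 32851 windows. Among the 6189 windows with a GC content between 57.1% and 65.1%, the quartiles of the member windows, 23.7% held the letters. The genes holding them were Epcam, Cldn3, Cldn4, Cldn6, Cldn7, Ocln, Tjp3, Marveld2, F11r, Lsr, Dsp, Elf3, Crb3, Rab25 and Spint2, and those without them were Cldn1, Cldn2, Tjp1, Cgn, Jup and Spint1. Cdh1, Dsg2, Dsc2, Pkp2, Pkp3, Perp, Esrp1, Esrp2, Grhl2, St14 and Prss8 have no window in the table. The letters AACCGGTT, the site that grainyhead-like factors bind, occurred in 0 of the 21 members and in 0.174% of all genes. A match is a description of the letters and does not show that a factor binds there.

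The sequences shown are those of Epcam, whose probe sets went opposite ways, and of the 5 members with a window whose chosen probe set read lower on every M1 and I1 array than on every BL185 array. They are given 5′ to 3′ on the strand of the gene, with the E-box letters in capitals. Epcam is shown over the 250 bases before its start, chr17:87635729-87635978 on the plus strand, with matches that begin 187 and 19 bases before the start. The other members are shown over 30 bases around the match: Cldn3 at chr5:134986233-134986262 on the plus strand, Ocln at chr13:100552694-100552723 and Marveld2 at chr13:100616922-100616951 on the minus strand, F11r at chr1:171437427-171437456 on the plus strand, and Spint2 at chr7:29282034-29282063 on the minus strand.
Epcam: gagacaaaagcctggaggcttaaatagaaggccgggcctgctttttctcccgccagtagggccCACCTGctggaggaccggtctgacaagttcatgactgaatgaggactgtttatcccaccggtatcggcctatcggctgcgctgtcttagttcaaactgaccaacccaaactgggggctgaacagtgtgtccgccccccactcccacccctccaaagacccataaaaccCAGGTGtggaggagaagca
Cldn3: caaagccacaggCAGGTGcaggggcagtct
Ocln: ccatcggagtttCAGGTGaatgggtcaccg
Marveld2: agcgtgctgttccggcggccgcgCAGGTGa
F11r: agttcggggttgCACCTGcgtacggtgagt
Spint2: cgggggcggtgcCAGGTGcaggccgcagag
Among the members whose chosen probe set read higher on every M1 and I1 array than on every BL185 array, Epcam, Lsr and Elf3 hold the letters and Cldn2 and Jup do not, so the letters were present on both sides.

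The arrays of M1 differed from each other far more than those of the other lines. Between the M1 replicates the members had an SD of 0.668 on the log2 scale, against 0.141 for I1 and 0.106 for BL185, close to the all-gene values of 0.651, 0.158 and 0.102. M1 replicate 1 had the most compressed signals (SD 1.62, other arrays 1.83 to 1.97). Controls of RNA quality separated both selected lines from the parent. The 18S ribosomal control read 10.11 and 10.14 in the parent and from 10.68 to 12.50 in the selected lines, highest on M1 replicate 1. The actin control's 3′ minus 5′ difference, which grows as RNA is degraded, was 1.08 and 0.88 in the parent and from 1.24 to 1.47 in the selected lines. The part of these differences in the members' values was not tested.

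The gap between the M1 arrays varied with the level of the signal. Among the 9 members with a BL185 mean under 8, M1 replicate 1 read above replicate 2 for 8, by a median of 0.82, against 0.35 over all genes at that level. Among the 8 members at 12 and over it read above replicate 2 for 2 only, with a median gap of −0.65 against −0.78 over all genes. In between, the members' median gap lay above that of all genes: 0.40 against −0.09 at 8 to 10, where it was positive for 5 of 8, and −0.43 against −1.03 at 10 to 12, positive for 2 of 7. I1 also read lower than BL185 at high levels, with a median change of −0.26 over all genes at 12 and over and of 0.17 over all genes under 8. At 10 to 12 the members went the other way: the I1 change was positive for 6 of 7, with a median of 0.42 against −0.29 over all 4485 genes there. Those 7 are Epcam, Lsr, Jup, Pkp2, Perp, Esrp2 and Crb3, of which Perp had the negative change. This holds for the chosen probe sets. Other probe sets had negative I1 changes for Epcam (−0.71), Esrp2 (−0.12) and Pkp2 (down to −0.03). All probe sets of Lsr and Crb3 had positive ones.

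**Figure D1:**
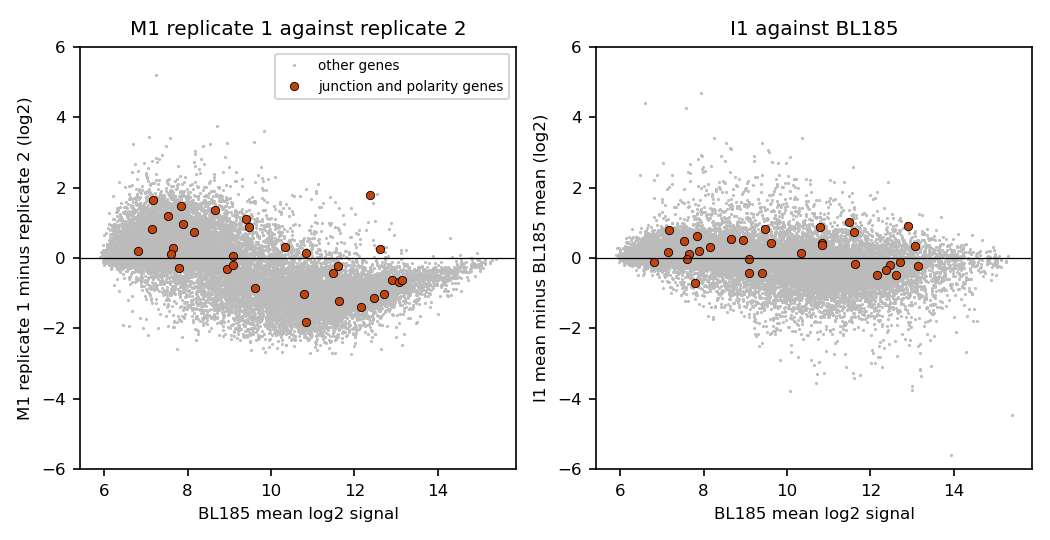
Left, the log2 signal of M1 replicate 1 minus that of M1 replicate 2, and right, the I1 mean minus the BL185 mean (log2), both against the BL185 mean log2 signal, for the 32 members (large points) and the other genes (small points). The M1 gap falls from above 0 at low signals to below 0 at high signals, and the members lie along or above the cloud there, while in the right panel most members between 10 and 12 lie above 0.

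In the fit of 1 probe set per gene, 0 of the 32 members differed between any lines at an adjusted p of 0.05 (limma with Benjamini-Hochberg adjustment over all genes, here and throughout). Over all genes the test called 0.879% in M1 minus BL185, 0.511% in I1 minus BL185 and 0% in I1 minus M1. The smallest adjusted p was 0.0839 for M1 (Marveld2), 0.149 for I1 (Jup) and 0.844 between the selected lines (Spint1). At an unadjusted p under 0.05 there were 7 members in M1 minus BL185 (Lsr and Jup higher; Ocln, Marveld2, F11r, Spint1 and Spint2 lower), 5 in I1 minus BL185 (Cldn2, Lsr, Jup and Grhl2 higher; Marveld2 lower) and 1 in I1 minus M1 (Spint1), against 2798, 2119 and 409 of all genes. The smallest change that any gene was called for was 1.31 log2 units in M1 and 1.53 in I1, beside largest positive changes of 0.92 and 1.02 and largest negative changes of −1.41 (Cldn3) and −0.71 (Marveld2) among the members. Both comparisons with the parent share the same BL185 arrays. In RNA from whole cultures, fewer cells with a transcript and less of it per cell cannot be told apart.

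The medians of the members' changes were 0.19 log2 units in M1, 0.19 in I1 and 0.15 in I1 minus M1, beside 0.07, 0.06 and −0.00 over all genes. The change was positive for 20, 19 and 24 of the 32 members. In M1, 9 members read higher and 8 lower on each of its arrays than on each BL185 array, 28.1% and 25% of the set, close to the 26.2% and 25.7% of all genes. In I1, 18 members read higher and 8 lower in this way, 56.2% and 25%, beside 42.6% and 33.5% of all genes. Between the selected lines, 6 members read higher in I1 (18.8%) and 1 lower (3.12%), beside 8.13% and 7.96% of all genes. By their chosen probe sets, Epcam, Cldn2, Lsr, Jup, Pkp3, Grhl2, Elf3 and St14 were higher than the parent without overlap in both lines. Cldn3, Ocln, Marveld2, F11r, Dsg2 and Spint2 were lower in both. The other probe set went the opposite way for Epcam (−1.70 in M1, −0.71 in I1), Cldn2 (−0.58, −0.60) and, slightly, F11r (0.05, 0.11). The share of all genes without overlap in both lines was not computed, and both comparisons use the same BL185 arrays.

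**Figure D2:**
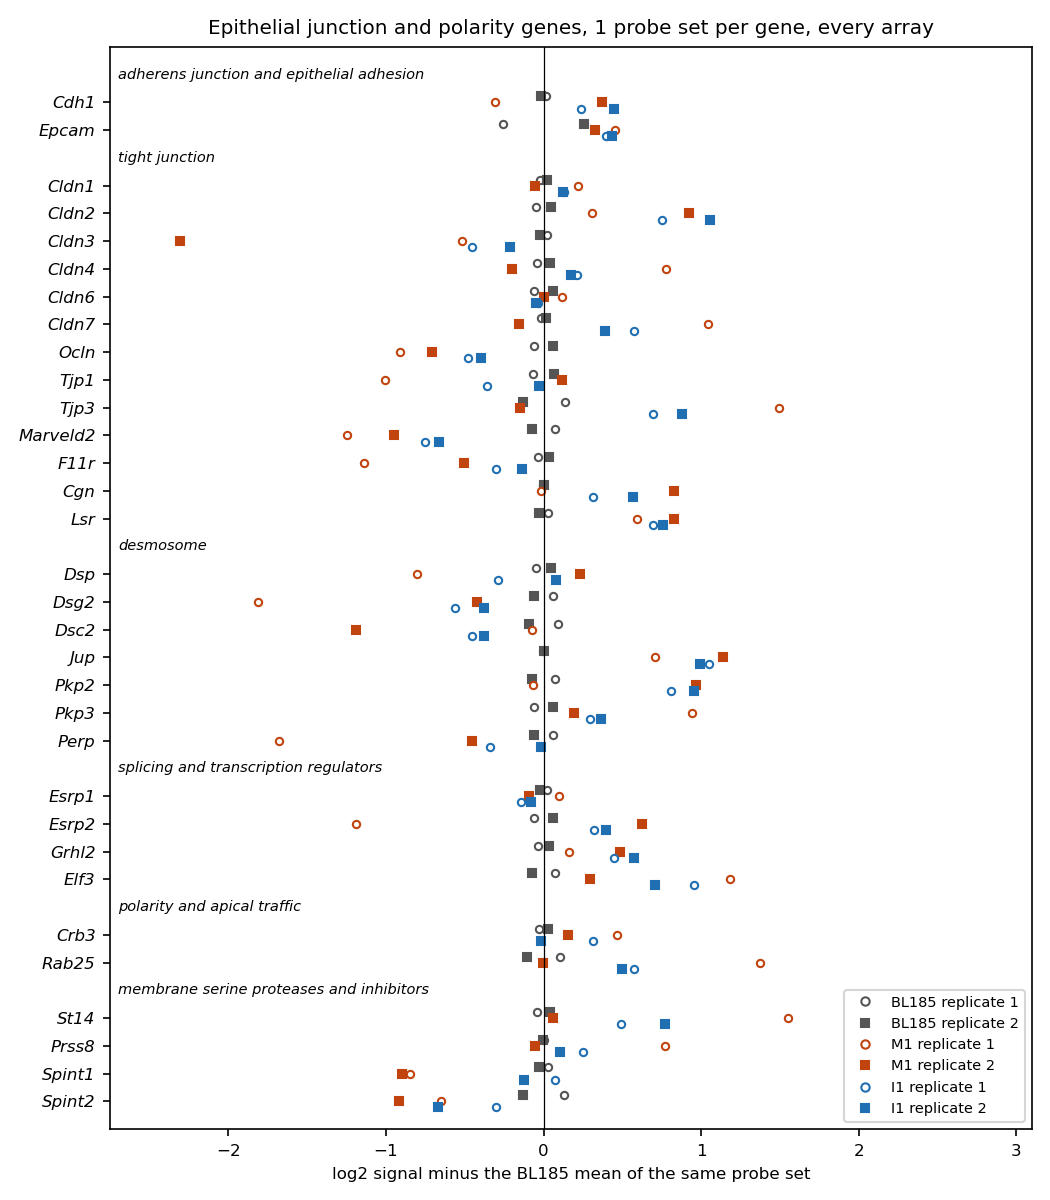
Each array's log2 signal minus the BL185 mean of the same probe set, for the 32 members grouped by role; open circles are replicate 1 and filled squares replicate 2 of BL185 (grey), M1 (orange) and I1 (blue). The BL185 and I1 arrays of a gene lie close together, the M1 arrays often do not, and Jup, Lsr and Cldn2 lie to the right on all 4 M1 and I1 arrays while Marveld2 and Ocln lie to the left.

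Without M1 replicate 1 many more genes passed the test, members among them. The share called rose to 24% of all genes in M1 minus BL185, 46.6% in I1 minus BL185 and 20.6% in I1 minus M1, and the members called were 15 (46.9%), 21 (65.6%) and 8 (25%). M1 is then a single array that is assumed to vary like the others. Calls also rose when M1 replicate 2 was left out instead. The I1 changes from BL185 do not use the M1 arrays and stayed the same. Only their pooled SE shrank, for Cdh1 from 0.27 to 0.12, so the added I1 calls reflect no change in the I1 values. The M1 change itself moved by over 1.5 times for many members. Cldn3 went from −1.41 to −2.31, Dsc2 from −0.63 to −1.19, Pkp2 from 0.45 to 0.97, Cgn from 0.41 to 0.83 and Cdh1 from 0.03 to 0.37. Smaller without that array were the changes of Dsg2 (−1.12 to −0.42), Perp (−1.07 to −0.46), F11r (−0.82 to −0.50), Elf3 (0.74 to 0.30), Pkp3 (0.57 to 0.19), Crb3 (0.31 to 0.15) and St14 (0.80 to 0.06). For 8 members with a change of at least 0.15 the sign turned: Tjp3 (0.67 to −0.15), Cldn7 (0.45 to −0.15), Cldn4 (0.29 to −0.20), Prss8 (0.36 to −0.05), Rab25 (0.69 to −0.0033), Tjp1 (−0.44 to 0.12), Dsp (−0.28 to 0.23) and Esrp2 (−0.28 to 0.63). The direction of those 8 in M1 therefore rests on 1 array. In M1, Cldn2, Cgn, Lsr, Jup, Pkp2, Esrp2 and Grhl2 were called higher and Cldn3, Ocln, Marveld2, F11r, Dsg2, Dsc2, Spint1 and Spint2 lower. In I1, 15 were called higher, Cdh1, Epcam and Jup among them, and Cldn3, Ocln, Marveld2, Dsg2, Dsc2 and Spint2 were called lower. The 8 called between the selected lines, Cldn3, Cldn7, Tjp3, Dsc2, Elf3, Rab25, St14 and Spint1, were all higher in I1.

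When every probe set was fitted on its own, 4 members had a probe set that fell in M1: Epcam, Cldn3, Ocln and Dsc2. In I1, Dsc2 alone had one, and 0 members had a probe set that rose in either line. Those 4 members are 12.5% of the set, beside 0.912% of all genes with any probe set called lower in M1 and 0.275% with any called higher. In I1 the member called is 3.12% of the set, beside 0.621% called lower and 0.225% called higher. Between I1 and M1 the share of genes was 0% lower and 0% higher. Of the members, 17 have more than 1 probe set, and among all 9010 genes with several, 1.18% had one called lower in M1 and 0.844% in I1. The 6 probe sets concerned are 6 of the 63 that name a member.

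The 6 probe sets had negative changes in both selected lines under each setting run on them (each array left out, quantile normalization, cyclic loess and the replicate block), but the calls depended on the arrays used. In M1 all 6 passed with either M1 array left out, where large shares of all genes also passed, and 5 passed after cyclic loess or quantile normalization, where the Cldn3 probe set 1451701_x_at had an adjusted p of 0.0685 and 0.0839 (limma). Without M1 replicate 1 their changes ran from −1.59 for Epcam to −2.72 for the Cldn3 probe set 1426332_a_at. With the replicate number as a block 0 of them passed, with adjusted p-values from 0.0738 to 0.115. Without 1 BL185 array 0 passed (0.462 to 0.56), and without 1 I1 array 0 passed (0.213 to 0.264).

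Cldn3 encodes claudin 3, a sealing claudin of the tight junction, and gave the largest differences in M1 among the 63 member probe sets. The probe set 1426332_a_at read 11.04 and 10.99 in the parent, 8.20 and 8.30 in M1, and 10.00 and 10.06 in I1. No array of a line overlapped with another line's, and I1 lay between M1 and the parent. Its change was −2.77 ± 0.14 log2 units in M1 (SE, adjusted p = 0.0141, limma) and −0.99 ± 0.14 in I1 (adjusted p = 0.0764). The probe set 1451701_x_at read 12.54 and 12.52, then 10.42 and 9.97, then 12.02 and 12.08 in BL185, M1 and I1, a change of −2.33 ± 0.20 in M1 (adjusted p = 0.0278, limma). The probe set 1460569_x_at read 12.62 and 12.49, then 9.45 and 9.98, then 12.34 and 12.32, a change of −2.84 ± 0.22 in M1 (adjusted p = 0.0249, limma). On both, M1 stood far below the other lines while I1 stood close to the parent, with I1 changes of −0.48 and −0.22. Between the selected lines the 3 probe sets differed by 1.78, 1.86 and 2.62, I1 minus M1, which did not pass the test over all probe sets (adjusted p = 0.165, 0.286 and 0.167, limma). The chosen probe set, 1434651_a_at, read 12.40 and 12.36 in the parent, 11.87 and 10.07 in M1, and 11.93 and 12.17 in I1, so its M1 arrays lay 1.79 log2 units apart. Its change was −1.41 ± 0.58 in M1 (adjusted p = 0.34, limma). There M1 replicate 1 lay below the parent but nearer to it than on the other 3 probe sets.

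Ocln encodes occludin, a membrane protein of the tight junction strand. Its probe set 1448873_at read 9.70 and 9.55 in the parent, 8.01 and 7.75 in M1, and 8.47 and 8.48 in I1. Both selected lines lay below the parent and M1 lay lowest, with changes of −1.74 ± 0.17 in M1 (adjusted p = 0.0328, limma) and −1.15 ± 0.17 in I1 (adjusted p = 0.0764). The chosen probe set, 1440220_at, gave the same order with smaller changes: 9.04 and 9.16 in the parent, 8.18 and 8.39 in M1, and 8.62 and 8.70 in I1, or −0.81 ± 0.18 (adjusted p = 0.134, limma) and −0.44 ± 0.18 (0.445).

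Dsc2 encodes desmocollin 2, a desmosomal cadherin, and was the only member with a probe set called in both lines. The probe set 1426911_at read 9.28 and 9.05 in the parent, 6.95 and 6.68 in M1, and 7.18 and 7.23 in I1. All M1 and I1 arrays lay below the medians of the arrays, which ran from 7.87 to 8.11, a range in which signal and background are hard to tell apart. Its changes were −2.35 ± 0.18 in M1 (adjusted p = 0.0249, limma) and −1.96 ± 0.18 in I1 (adjusted p = 0.0397). The I1 call was lost with the replicate block (adjusted p = 0.117, limma), without 1 BL185 array (0.612 and 0.603) and without 1 I1 array (0.62 and 0.601). The chosen probe set, 1421156_a_at, read 9.49 and 9.31 in the parent, 9.33 and 8.21 in M1, and 8.95 and 9.02 in I1, with changes of −0.63 ± 0.38 and −0.42 ± 0.38. It also lay lower in both lines, but M1 replicate 1 overlapped with the parent.

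Epcam encodes the epithelial cell adhesion molecule, which is carried by bile duct and progenitor cells of the liver, and its 2 probe sets went opposite ways. The probe set 1416579_a_at read 9.60 and 9.32 in the parent, 7.65 and 7.87 in M1, and 8.68 and 8.81 in I1. M1 lay lowest, at or under the array medians, and I1 between, with changes of −1.70 ± 0.18 in M1 (adjusted p = 0.0398, limma) and −0.71 ± 0.18 in I1 (adjusted p = 0.18). The chosen probe set, 1447899_x_at, read 10.57 and 11.09 in the parent, 11.28 and 11.15 in M1, and 11.23 and 11.27 in I1. Here all selected arrays lay above the parent's, by 0.39 ± 0.23 in M1 (adjusted p = 0.434, limma) and 0.42 ± 0.23 in I1 (adjusted p = 0.593). In Affymetrix naming, _x_at marks a probe set in which some probes also match other transcripts and _a_at one shared by transcripts of 1 gene. The actin 3′ minus 5′ difference was higher on all selected arrays, and its part in this disagreement was not tested. The data give no single direction for Epcam.

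**Figure D3:**
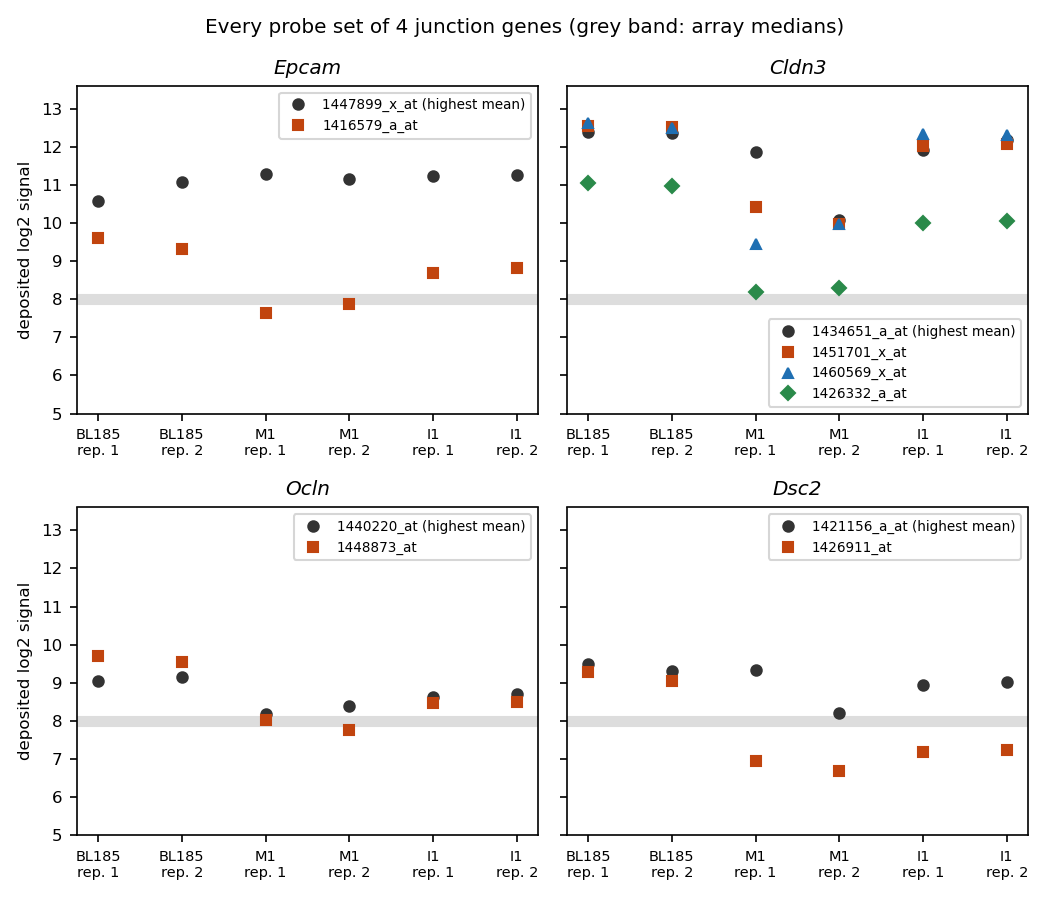
Deposited log2 signal of every probe set of Epcam, Cldn3, Ocln and Dsc2 on each of the 6 arrays; black circles are the probe set with the highest mean, and the grey band spans the array medians, 7.87 to 8.11. For Cldn3 3 probe sets drop far on both M1 arrays and the black one drops far on replicate 2 and little on replicate 1. For Epcam the probe sets go opposite ways.

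Cdh1, the cadherin of the adherens junction, stayed well above the array medians in all lines. Its only probe set read 13.08 and 13.05 in the parent, 12.76 and 13.43 in M1, and 13.30 and 13.51 in I1. The M1 arrays lay on either side of the parent and the I1 arrays a little above it, with changes of 0.03 ± 0.27 in M1 (adjusted p = 0.947, limma) and 0.34 ± 0.27 in I1 (adjusted p = 0.691). No fall of Cdh1 was seen on these arrays, although the SE leaves room for a moderate change in M1.

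Of the 13 tight junction members, 2 read higher and 4 lower in M1 without overlap, and 7 higher and 4 lower in I1. These are 15.4% and 30.8%, and 53.8% and 30.8%, of the list, to be read beside 26.2% and 25.7%, and 42.6% and 33.5%, of all genes. Marveld2, which encodes tricellulin of the corners where cells meet, read 7.87 and 7.72 in the parent, 6.55 and 6.84 in M1, and 7.05 and 7.13 in I1. Both selected lines lay below the parent, by −1.10 ± 0.19 in M1 (adjusted p = 0.0839, limma) and −0.71 ± 0.19 in I1 (adjusted p = 0.235), though every value lay at or under the array medians. F11r, the junctional adhesion molecule A gene, had a mean of 13.14 ± 0.05 (SD, n = 2) in the parent, against 12.32 ± 0.45 for M1 and 12.92 ± 0.12 for I1. M1 lay lowest and I1 just under the parent, with changes of −0.82 ± 0.26 (adjusted p = 0.25, limma) and −0.22 ± 0.26 (0.759).

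Cldn2 and Lsr went the other way. Cldn2, a claudin that forms cation pores, read 12.85 and 12.95 in the parent, 13.21 and 13.83 in M1, and 13.65 and 13.96 in I1, with changes of 0.62 ± 0.27 (adjusted p = 0.356, limma) and 0.90 ± 0.27 (0.273). All 4 selected arrays lay above the parent, but the dimmer Cldn2 probe set, 1417232_at, had changes of −0.58 in M1 and −0.60 in I1, with M1 arrays of 8.77 and 10.33. Lsr, a component of tricellular junctions and a lipoprotein receptor, read 11.63 and 11.58 in the parent, 12.20 and 12.43 in M1, and 12.30 and 12.37 in I1. The selected lines lay together above the parent, by 0.71 ± 0.18 in M1 (adjusted p = 0.169, limma) and 0.73 ± 0.18 in I1 (adjusted p = 0.2), and the second Lsr probe set was also higher in both (0.88 and 0.55).

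The other tight junction members had changes between −0.44 and 0.79 log2 units. Cgn, the cytoplasmic plaque protein cingulin, read 9.61 and 9.62 in the parent, 9.60 and 10.44 in M1, and 9.93 and 10.18 in I1, so M1 replicate 1 matched the parent while the other selected arrays lay above it. The scaffold gene Tjp1 (ZO-1) had changes of −0.44 in M1 and −0.19 in I1, with M1 arrays of 11.46 and 12.59 on either side of the parent. Cldn1, Cldn6, Cldn7 and Tjp3 read under 8.11 in every line mean, where no direction can be read with confidence. Cldn4 read between 7.68 and 8.66. In I1 minus M1, Cldn7 had a change of 0.04 and Tjp3 of 0.11, which turned to −0.56 and −0.71 without M1 replicate 2.

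Of the 7 desmosome members, 2 read higher and 2 lower in M1 without overlap, and 3 higher and 2 lower in I1. The shares, 28.6% each in M1 and 42.9% and 28.6% in I1, lie near those of all genes. Dsg2, the desmoglein of simple epithelia, read 12.21 and 12.09 in the parent, 10.33 and 11.72 in M1, and 11.59 and 11.77 in I1. The selected arrays lay below the parent, most of all M1 replicate 1, with changes of −1.12 ± 0.46 in M1 (adjusted p = 0.342, limma) and −0.47 ± 0.46 in I1 (adjusted p = 0.732). Of its 6 probe sets, 5 had a negative change in M1 and 6 in I1, the lowest being −1.66 and −1.73. Perp, a desmosomal membrane protein and p53 target, read 11.69 and 11.57 in the parent, 9.95 and 11.18 in M1, and 11.29 and 11.62 in I1. M1 lay below the parent by −1.07 ± 0.42 (adjusted p = 0.327, limma), again mostly through replicate 1, and I1 overlapped with the parent (−0.18 ± 0.42).

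Jup encodes plakoglobin, which binds cadherins in desmosomes and adherens junctions, and had the largest positive change among the chosen probe sets in both lines. Its only probe set read 11.47 and 11.48 in the parent, 12.18 and 12.61 in M1, and 12.53 and 12.47 in I1. Every selected array lay above the parent, by 0.92 ± 0.21 in M1 (adjusted p = 0.143, limma) and 1.02 ± 0.21 in I1 (adjusted p = 0.149). Pkp2, plakophilin 2, read 10.86 and 10.71 in the parent, 10.72 and 11.76 in M1, and 11.60 and 11.74 in I1, so all but M1 replicate 1 lay above the parent. Its changes were 0.45 ± 0.36 and 0.88 ± 0.36, while a probe set of like brightness, 1429183_at, had −0.31 and −0.01. Pkp3 read 8.10 and 8.22 in BL185 and between 8.35 and 9.10 in the selected lines. Dsp, desmoplakin, had changes of −0.28 and −0.11 and overlapped with the parent in both lines. The Dsp change in M1 was 0.07 after quantile normalization or cyclic loess.

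After quantile normalization or cyclic loess, which bring the arrays to a like distribution, several of these plaque and tight junction genes passed the test. Jup was called higher in M1 (1.31 by either method; adjusted p = 0.0183 and 0.0172, limma) and in I1 (1.25 and 1.18; 0.0248 and 0.0256). Cldn2 and Pkp2 were also called higher in both lines by both methods, Lsr and Cgn in M1 by both, and Grhl2 in I1 by both. Marveld2 and Spint1 were called lower in M1 by both methods, and Ocln by cyclic loess. In all, 7 members were called in M1 and 4 in I1 after quantile normalization, and 8 and 5 after cyclic loess, where 1176 and 980, and 1831 and 1544, of all genes were called.

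Of the splicing and transcription regulators, Grhl2 read 8.91 and 8.98 in the parent, 9.10 and 9.42 in M1, and 9.39 and 9.52 in I1. The selected arrays lay above the parent by 0.32 ± 0.19 in M1 (adjusted p = 0.436, limma) and 0.51 ± 0.19 in I1 (adjusted p = 0.406), and its 4 probe sets all had positive changes in both lines, from 0.03 to 0.51. Elf3, an ETS factor of epithelia, read 9.53 and 9.39 in the parent, 10.64 and 9.76 in M1, and 10.42 and 10.17 in I1, also without overlap (0.74 ± 0.33 and 0.83 ± 0.33). Esrp2 read 10.78 and 10.90 in the parent, 9.65 and 11.47 in M1, and 11.16 and 11.24 in I1, the widest gap between M1 arrays of any member. Its M1 change of −0.28 was 0.63 without M1 replicate 1. Esrp1 read between 6.67 and 6.91 on all arrays, under the array medians.

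Crb3, an apical determinant of the Crumbs complex, had positive changes on all 3 of its probe sets in both lines, from 0.31 to 1.05 in M1 and from 0.15 to 0.85 in I1. The chosen one read 10.31 and 10.37 in the parent, 10.80 and 10.49 in M1, and 10.65 and 10.32 in I1, so it overlapped with the parent in I1. Rab25, a GTPase of apical recycling, read 8.77 and 8.55 in the parent, 10.03 and 8.66 in M1, and 9.23 and 9.16 in I1. I1 lay above the parent and M1 replicate 2 within it. The I1 minus M1 change of Rab25, −0.15, was 0.54 without M1 replicate 1.

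Spint1 and Spint2 encode the transmembrane inhibitors HAI-1 and HAI-2, which restrain the membrane proteases matriptase (St14) and prostasin (Prss8). Spint1 read 9.12 and 9.06 in the parent, 8.24 and 8.19 in M1, and 9.16 and 8.96 in I1. M1 stood apart from both other lines and I1 overlapped with the parent, with changes of −0.87 ± 0.17 in M1 (adjusted p = 0.109, limma), −0.03 ± 0.17 in I1 (adjusted p = 0.956) and 0.85 ± 0.17 in I1 minus M1 (unadjusted p = 0.0037, adjusted p = 0.844). Spint2 read 12.75 and 12.49 in the parent, 11.97 and 11.70 in M1, and 12.32 and 11.95 in I1. Both lines lay below the parent, by −0.78 ± 0.23 in M1 (adjusted p = 0.222, limma) and −0.48 ± 0.23 in I1 (adjusted p = 0.52), and its second probe set also read lower (−0.90 and −0.23). St14 read 7.80 and 7.88 in the parent, 9.39 and 7.90 in M1, and 8.33 and 8.61 in I1, and its I1 minus M1 change of −0.17 was 0.57 without M1 replicate 1. Prss8 read between 7.10 and 7.92, under the array medians.

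Among 65 measured genes of 70 on lists of other junction, polarity and regulator genes, 1 rose and 1 fell in M1. For I1 minus BL185 and for I1 minus M1, 0 of the 65 passed. Of all genes the test called 0.879% for M1 and 0.511% for I1 against BL185, and 0% for I1 minus M1. An unadjusted p under 0.05 (limma) was found for 19 of the 65 in M1, 9 in I1 and 3 in I1 minus M1. Over all 18193 genes the counts at that p were 2798, 2119 and 409, in the same order. The median change of the 65 was −0.00 in M1 and 0.08 in I1, and 32 and 37 of the 65 were positive. The gene that fell was Cldn23, another claudin, which read 8.21 and 8.34 in the parent, 6.92 and 6.88 in M1, and 6.94 and 6.82 in I1. The selected lines lay together, below the array medians, with changes of −1.37 ± 0.17 in M1 (adjusted p = 0.0462, limma) and −1.39 ± 0.17 in I1 (adjusted p = 0.0546). The gene that rose was Twist2, a repressor of the E-cadherin gene in other cells, which read 8.90 and 8.86 in the parent, 10.49 and 10.62 in M1, and 9.96 and 9.86 in I1. Its changes were 1.68 ± 0.17 in M1 (adjusted p = 0.0283, limma) and 1.03 ± 0.17 in I1 (adjusted p = 0.0984).

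Of the other repressors 0 passed the test in either line. Snai1 read 7.78 and 7.77 in the parent, 9.38 and 8.38 in M1, and 9.29 and 8.47 in I1, above the parent on every selected array, and Snai2 had changes of −0.73 in M1 and −0.78 in I1. Zeb1, Zeb2 and Twist1 had changes between −0.32 and 0.55. Of 14 other tight junction genes, Jam2 and Cxadr, chosen after their values were seen, had the lowest M1 changes, −2.08 ± 0.36 (adjusted p = 0.0862, limma) and −1.49 ± 0.43 (0.218). Jam2 read 11.36 on both BL185 arrays, 8.76 and 9.80 in M1 and 11.08 and 11.30 in I1, so I1 stayed near the parent as Cldn3 did on 2 of its probe sets.

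In the remaining lists 0 genes passed, and the largest differences were as follows. Of 13 other adherens junction genes, Cdh2, N-cadherin, had changes of 1.25 in M1 and 1.26 in I1, with BL185 arrays of 10.80 and 10.50 and selected arrays from 11.39 to 12.41. Afdn, a nectin-binding scaffold, had −1.24 and −1.17, and Cdh6 had −0.84 and −1.28. Of 6 other desmosome genes, the cytolinker gene Ppl had 1.34 in both lines (adjusted p = 0.08 and 0.0996, limma), Pkp1 had −1.25 in M1 and 0.15 in I1, and Pkp4 had −0.27 and 0.26. Of 18 other polarity genes, the scaffold gene Dlg1 had −1.24 and −0.87, Pard6b −1.11 and −0.71, and Dlg3 −0.81 and 0.17. Of 8 other epithelial regulators, Grhl3, a relative of Grhl2, had 1.89 ± 0.31 in M1 (adjusted p = 0.0746, limma) and 2.04 ± 0.31 in I1 (adjusted p = 0.0866), Klf5 had −0.89 and −0.73, and Elf5 had 0.56 and 0.44.

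**Figure D4:**
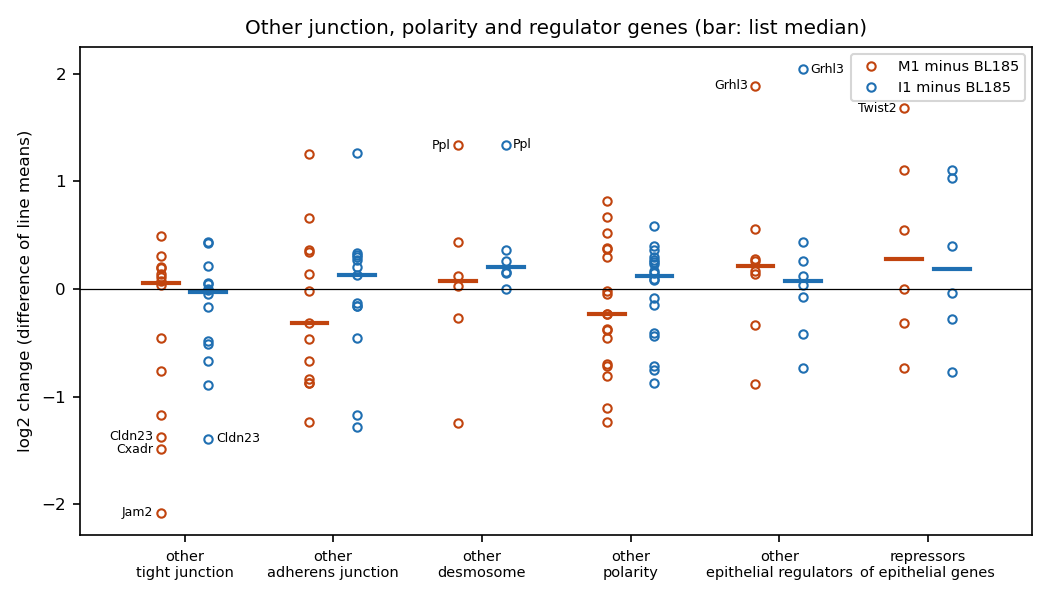
Log2 change of each gene on the 6 lists of other junction, polarity and regulator genes, in M1 (orange) and I1 (blue) against BL185; each circle is a gene and the bar is the list's median. The medians lie between −0.31 and 0.28, and the labelled genes Grhl3, Ppl and Twist2 lie above and Cldn23, Cxadr and Jam2 below.

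Markers of the labelled liver tumour origin were present in part. Krt19, a bile duct keratin, read between 14.59 and 15.08, and the hepatocyte factor gene Hnf4a between 11.94 and 13.34, whereas the albumin gene Alb read between 7.53 and 8.43, around the array medians. Summed linear signals of 6 hepatocyte genes were 9076 to 9533 for the parent, 6343 to 8427 for M1 and 9947 to 12108 for I1, and those of 3 bile duct genes 34876 to 35945, 25325 to 28912 and 34816 to 35927. Of markers of other cell types, 2 of 7 leukocyte and macrophage genes fell in M1. They were Cd68 (−3.21 ± 0.21, adjusted p = 0.0147, limma) and Cd53 (adjusted p = 0.0469, limma). Cd68 also fell in I1 (adjusted p = 0.0262, limma). Over all genes 0.879% were called in M1 and 0.511% in I1. The other 5 of the 7 had positive changes in both lines, and the list medians were 0.47 in M1 and 0.30 in I1. The sums of the 7 were 4192 to 4421, 2415 to 4265 and 2893 to 3063. The leukocyte marker Ptprc read between 6.25 and 7.17, under the array medians. Of 8 fibroblast and 6 endothelial genes, 0 passed, with sums of 2219 to 2378, 2541 to 3461 and 2804 to 2993 for the former, and 1072 to 1156, 1272 to 1524 and 1230 to 1240 for the latter. Of the other markers, Sox9, of bile duct cells, and Fgb, of hepatocytes, fell in M1 (−2.06 and −1.78, adjusted p = 0.0343 and 0.0469, limma). Their lists did not move as a whole. The change was positive for 4 of the 6 hepatocyte genes in each line. For the 3 bile duct genes it was positive for 1 in M1 and 2 in I1. Sox9, Fgb and Cd53 also read lower on every I1 array than in the parent, with changes of −1.35, −1.93 and −1.46. Those I1 changes did not pass in the fit of 1 probe set per gene, narrowly so for Fgb (adjusted p = 0.0501, limma). The part of these markers in the members' values was not tested.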

How the data were processed

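The values used are log2 signals of probe sets as deposited, a column for each array. The submitters' processing notes name RMA and affy, with versions and settings not given in the sources used here, and the log2 scale was read from the values. In the platform annotation 34945 of 45101 probe sets name 1 gene and 932 name several, and taking 1 probe set per gene left 18193 genes. The number of unused columns was 0.

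All 6 arrays entered a limma fit (version 3.58.1, R 4.3.3) with a mean for each line, and eBayes tested the 3 contrasts (3 residual and 2.27 prior degrees of freedom), with Benjamini-Hochberg adjustment over all genes and a threshold of 0.05. SEs pool the spread of all lines. The fit was also run on simulated data, with each line's own spread and with the BL185 spread in every line. Its outcome is not reported here, so it says nothing on recovery at the members' change sizes. No detection calls were used, and the number of arrays limits the precision. Promoters were RefSeq sequences of GRCm38.p6. Tables and figures used Python 3.11.15, pandas 2.3.3 and matplotlib 3.10.9.

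The members and lists were chosen with earlier results of these data known. Array values are given for members that differ by at least 1 log2 unit between any lines, for Cdh1 and Epcam, and for further members chosen after their values were seen. Other listed genes are named where called, or else up to 3 per list with the largest difference. Some listed genes were not analysed here. Replicate numbers from the titles were not used in the main fit, and whether a number marks a shared batch is not in the labels. Deviations from the line means correlated at −0.131 between BL185 and M1, 0.161 between BL185 and I1 and 0.369 between M1 and I1. The source of the 0.369 was not tested, so some sharing by number between the selected lines remains possible. The alternatives were fitting every probe set or the mean over a gene's sets, a minimum mean log2 of 8, cyclic loess or quantile normalization, arrays centred on their medians, adding 50 on the linear scale, array weights, eBayes robust or with trend, the replicate block, arrays of the compared lines only, and each array left out.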

Additional observations from a re-analysis of the deposited data

How the results depend on the processing

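The absence of calls among members held under 50 added to the linear value, median centring, robust eBayes, the minimum mean, both forms of the replicate block and leaving out a BL185 or I1 array. Under each other setting members were called in at least 1 comparison. The members called in M1 minus BL185 were 3 with the mean over a gene's sets (Cldn3, Ocln and Marveld2, adjusted p = 0.016, 0.0237 and 0.0497, limma), 4 with every probe set, 7 after quantile normalization, 8 after cyclic loess and 1 with eBayes with trend (Marveld2, adjusted p = 0.0412). In I1 minus BL185 they were 1 with every probe set, 4 after quantile normalization, 5 after cyclic loess, 19 with array weights and 21 with only the arrays of the lines compared.

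The genes called over the whole arrays, 160 in M1, 93 in I1 and 0 between them, moved more. For M1 they were 338 with the mean of probe sets, 1176 after quantile normalization, 1831 after cyclic loess, 57 after median centring, 312 with array weights and 0 with only the lines compared. For I1 they were 154 with every probe set, 980, 1544, 23, 8551 and 8481 after quantile normalization, cyclic loess, median centring, array weights and with only the lines compared. Between the selected lines they were 1 with the minimum mean, 6 after quantile normalization, 51 after cyclic loess and 2 with array weights. The members' median change in M1 was 0.025 with the mean of probe sets, 4e-04 with every probe set, 0.29 with the minimum mean and 0.061 after median centring. In I1 it was −0.026 with every probe set and 0.33 with the minimum mean, and in I1 minus M1 it was 0.062 with every probe set, 0.22 with the minimum mean, 0.052 after quantile normalization, 0.082 after cyclic loess and 0.22 after median centring. The cause of these moves was not tested.

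With 1 array left out, the members called ran from 0 to 23 in M1 minus BL185, from 0 to 21 in I1 minus BL185 and from 0 to 21 in I1 minus M1, and genes called from 0 to 12879, from 0 to 8481 and from 0 to 10365. The members' medians ran from −0.0012 to 0.23, from 0.15 to 0.24 and from 0.13 to 0.18. Calls came from leaving out an M1 array, and leaving out a BL185 or I1 array left 0. Among members with a change of at least 0.15, signs turned for 8 in M1 minus BL185 and 11 in I1 minus M1 without M1 replicate 1, and for 2 (Cgn and Pkp2) and 1 (Dsc2) without M1 replicate 2. The reversed values that passed the test were those of Esrp2 in M1 minus BL185, whose change ran from −1.19 to 0.63, and in I1 minus M1 of Rab25 (−0.84 to 0.54), St14 (−0.92 to 0.57), Cldn7 (−0.56 to 0.63) and Tjp3 (−0.71 to 0.93), since their M1 arrays lay on either side of the other line.

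With the replicate block the genes called were 38 in M1 minus BL185 and 1 in I1 minus BL185, with 0 members in either. With the BL185 numbers crossed, a pairing chosen after seeing the data, they were 76 and 0. Of 1707 values of single genes under the alternatives, 1377 did not pass, kept their direction and moved less than the replicate spread. Another 172 newly passed in the same direction, and 5 passed with the direction reversed. The other 153 did not pass and moved further or turned sign. Some alternatives leave the difference of line means unchanged by design. These are both eBayes forms, array weights, the replicate blocks and the fit of the compared lines only. Leaving out an array of the third line does the same. Part of the 1377 was thus fixed in advance, so that count does not measure stability.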
